A study of Mus musculus with 12 samples.

Results

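The genes described here are the interleukins, their receptor subunits and their antagonists. A member was any protein-coding RefSeq gene on chromosomes 1 to 19 or X of the mouse whose symbol starts with Il and a digit, and 83 of 21631 genes met that rule. By role they were 37 ligands, 38 receptor subunits, 6 antagonists or decoy receptors (Il1rn, Il1f5, Il18bp, Il22ra2, Il1r2 and Il13ra2) and 2 others (Il4i1 and Il4i1b, overlapping genes named for induction by IL-4). Chromatin accessibility had been measured by ATAC-seq, in which a transposase cuts open DNA and the inserted ends are sequenced, in sorted mTEChi, the mature medullary thymic epithelial cells. Mice were C57BL/6 and 4 to 7 weeks old. There were 12 libraries, 2 in each of 6 groups: Aire -/-, which lacks the autoimmune regulator that drives tissue-restricted genes in these cells, Aire +/C313Y and Aire +/C442G, which each carry 1 mutant and 1 normal allele, and Aire +/+ in 3 pairs. Each pair of wild types was set against the mutant whose sample titles have the same form, which gives 3 sets of 4 libraries. Genotype and set cannot be told apart across sets, so mutants were compared with wild types within a set. The labels do not say whether libraries came from separate mice, and the p-values measure only the spread between these libraries, which may be technical.

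Interleukins are secreted signals that bind receptors built from a ligand-specific chain and often a shared chain, such as the common gamma chain of the IL-2, IL-4, IL-7, IL-9, IL-15 and IL-21 receptors or gp130 of the IL-6 family. Most of these receptors signal through JAK kinases and STAT factors, while receptors of the IL-1 and IL-17 families use adaptor proteins that lead to NF-kB and AP-1. In the thymus, epithelial IL-7 and IL-15 support developing thymocytes and innate-like lymphocytes, and tuft cells of the medulla make IL-25.

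The deposited files are peak lists, with no counts, so the depth behind each peak is unknown. A member was called open in a library when a peak overlapped the 1 kb on either side of 1 of its 2 ends by at least 1 bp, and its level was the number of bases that peaks covered in those windows. In bulk sorted cells, a peak carried by few cells and a weaker peak carried by all of them cannot be told apart. The lists held 34047 to 122326 peaks, and both wild types of the Aire -/- set had the shortest lists, at 34715 and 34047. No pair of lists shared more than 0.545 of their joint bases. The knockout-set comparison therefore sets long lists against short ones, and values from lists cut to equal length are given beside it.

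Promoters of 7 members are shown because the results below turn on them. They include 3 receptor genes open in all 12 libraries (Il12rb2, Il15ra and Il2rg), both kinds of start of Il1rn, and Il6. The others are Il7r, whose peak was absent from both wild types of the knockout set, and Il22ra1, whose ends were open in 1 set alone. Each runs 5′ to 3′ from 250 bases before to 50 after a listed start, from RefSeq GRCm38.p6, the build of mm10. Capitals mark matches to 3 motifs searched on both strands: the NF-kB consensus, the STAT motif TTCNNNGAA and the AP-1 motif TGANTCA.
Il12rb2, chr6:67376139-67376438, minus strand: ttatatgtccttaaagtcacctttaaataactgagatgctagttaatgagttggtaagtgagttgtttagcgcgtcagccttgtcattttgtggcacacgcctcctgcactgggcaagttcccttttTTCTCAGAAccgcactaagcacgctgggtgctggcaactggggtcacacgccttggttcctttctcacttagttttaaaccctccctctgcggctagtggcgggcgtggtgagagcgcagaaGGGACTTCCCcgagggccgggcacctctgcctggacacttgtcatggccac
Il15ra, chr2:11705462-11705761, plus strand: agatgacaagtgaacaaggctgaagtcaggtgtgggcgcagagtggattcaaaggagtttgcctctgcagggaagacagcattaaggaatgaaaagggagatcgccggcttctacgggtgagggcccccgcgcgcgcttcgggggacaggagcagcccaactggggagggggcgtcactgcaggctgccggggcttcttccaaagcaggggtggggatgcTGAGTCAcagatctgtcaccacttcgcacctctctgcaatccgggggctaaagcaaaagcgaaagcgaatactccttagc
Il2rg, chrX:101268206-101268505, minus strand: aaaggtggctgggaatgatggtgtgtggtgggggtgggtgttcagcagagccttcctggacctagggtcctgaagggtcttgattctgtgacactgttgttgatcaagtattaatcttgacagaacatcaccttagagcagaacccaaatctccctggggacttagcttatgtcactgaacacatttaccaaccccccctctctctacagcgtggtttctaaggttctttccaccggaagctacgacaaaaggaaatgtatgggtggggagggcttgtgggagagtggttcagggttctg
Il7r, chr15:9529827-9530126, minus strand: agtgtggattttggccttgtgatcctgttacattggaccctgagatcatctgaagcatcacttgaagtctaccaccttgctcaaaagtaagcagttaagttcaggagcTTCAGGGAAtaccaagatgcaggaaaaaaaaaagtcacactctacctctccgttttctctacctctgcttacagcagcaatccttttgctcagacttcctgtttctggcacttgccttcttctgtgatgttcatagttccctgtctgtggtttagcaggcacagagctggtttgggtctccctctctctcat
Il1rn, upstream start, chr2:24336610-24336909, plus strand: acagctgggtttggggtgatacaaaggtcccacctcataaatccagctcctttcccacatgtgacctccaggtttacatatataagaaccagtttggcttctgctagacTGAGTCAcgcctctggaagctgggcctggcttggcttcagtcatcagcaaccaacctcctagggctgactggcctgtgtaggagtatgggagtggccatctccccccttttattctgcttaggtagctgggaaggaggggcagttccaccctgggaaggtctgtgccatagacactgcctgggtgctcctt
Il1rn, internal start, chr2:24345041-24345340, plus strand: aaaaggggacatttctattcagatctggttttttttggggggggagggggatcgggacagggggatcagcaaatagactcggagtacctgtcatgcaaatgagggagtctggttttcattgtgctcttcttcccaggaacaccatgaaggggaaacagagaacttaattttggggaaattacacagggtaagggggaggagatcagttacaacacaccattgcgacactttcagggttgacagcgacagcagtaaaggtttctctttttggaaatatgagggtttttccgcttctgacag
Il6, chr5:30012864-30013163, plus strand: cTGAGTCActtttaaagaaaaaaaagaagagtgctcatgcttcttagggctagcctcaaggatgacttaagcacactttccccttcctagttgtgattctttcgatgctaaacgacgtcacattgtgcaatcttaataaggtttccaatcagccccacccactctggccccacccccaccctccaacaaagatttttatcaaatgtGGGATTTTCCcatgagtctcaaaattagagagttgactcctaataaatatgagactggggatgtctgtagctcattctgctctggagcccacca
Il22ra1, chr4:135727909-135728208, plus strand: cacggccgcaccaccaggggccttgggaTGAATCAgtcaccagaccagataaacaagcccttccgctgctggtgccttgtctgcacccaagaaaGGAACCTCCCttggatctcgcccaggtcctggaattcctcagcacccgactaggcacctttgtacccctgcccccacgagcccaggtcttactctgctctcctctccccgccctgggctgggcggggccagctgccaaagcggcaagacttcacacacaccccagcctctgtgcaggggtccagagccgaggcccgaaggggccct

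Il12rb2, a chain of the IL-12 receptor, had the NF-kB match GGGACTTCCC beginning at position -1, counted from 0 at the start, and the STAT match TTCTCAGAA at -123. Il7r had the STAT match TTCAGGGAA at -142. Il6 had the NF-kB match GGGATTTTCC at -44 and an AP-1 match at -249, Il22ra1 had GGAACCTCCC at -156 and TGAATCA at -222, and Il15ra and the upstream Il1rn start had AP-1 matches at -30 and -141. The windows of Il2rg and of the internal Il1rn start held none of the 3 motifs. A listed start was available for 66 members, 81 starts in all. Of these starts, 8 held an NF-kB match (9.88%, against 9.34% of 21045 listed starts of protein-coding genes), 10 a STAT match (12.3% against 7.76%) and 14 an AP-1 match (17.3% against 7.04%). Of these, 2 of the starts with an NF-kB match, 1 with a STAT match and 2 with an AP-1 match were open in all 12 libraries. Over all listed starts these were 916 of 1966, 528 of 1634 and 337 of 1481. Members' starts held few CG dinucleotides, with a median of 4 in 300 bases against 13 over all genes. The 17 member starts open in all 12 libraries (21%, against 41% of all starts) had a median of 15, against 23 over all such starts. They lay between 3 and 34, and Il2rg was the low end with 3. The 39 member starts open in no library (48.1%, against 35.4%) had a median of 4, against 3 over all such starts.

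Receptor genes were open more often than ligand genes. Counting both ends of each gene, 18 of 38 receptor subunits (47.4%) were open in all 12 libraries, but 5 of 37 ligands (13.5%), and all members together gave 26 (31.3%) where 46.6% of protein-coding genes were. Open in no library were 14 ligands (37.8%) and 4 receptor subunits (10.5%), and 18 members in all (21.7%) against 25.8% of genes. With peaks that also lie near another gene left out, 19 members were open in all 12 libraries, the same 5 ligands among them. Il10rb, Il17rb, Il17rc, Il18r1, Il1rl1, Il4i1b and Il9r dropped out, all but Il4i1b receptor subunits, so the gap narrowed. That setting was not run over all genes. The means per group were 10 to 15 open ligands and 22 to 30.5 open receptor subunits, with the lowest of both in the wild types of the knockout set.

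**Figure D1:**
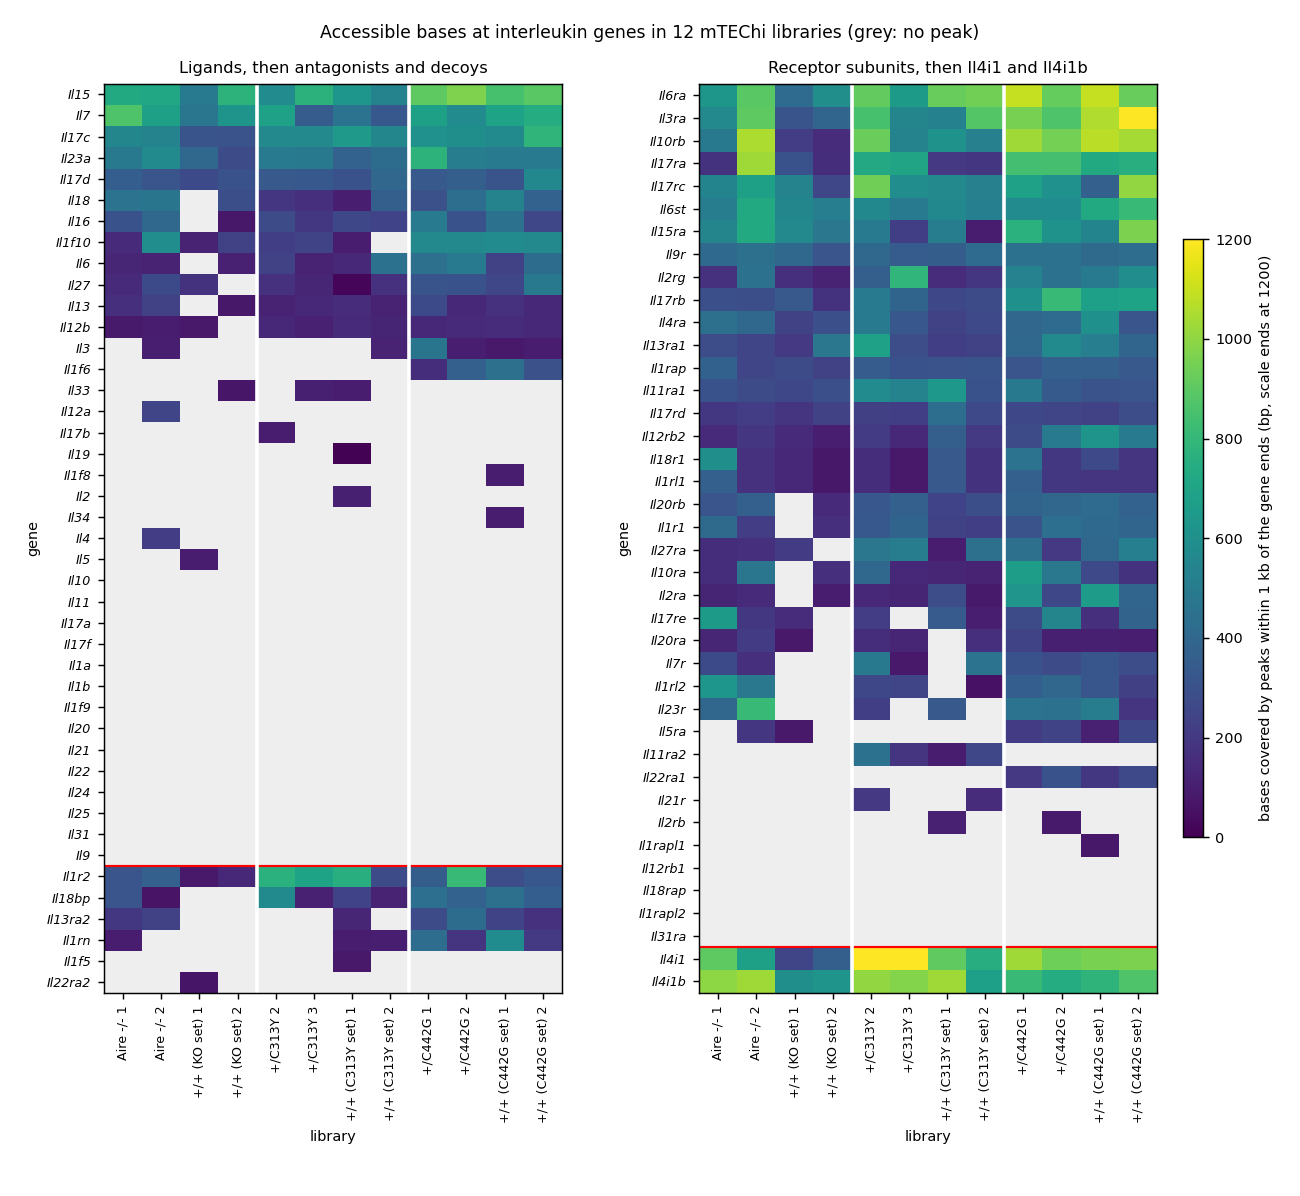
Bases covered by peaks within 1 kb of the gene ends (colour, bp, scale ending at 1200; grey, no peak) for every member (rows, by role, ligands first) in the 12 libraries (columns). Receptor rows are coloured across most columns, while 14 ligand rows are grey throughout.

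The ligands open in all 12 libraries were Il7, Il15, Il17c, Il23a and Il17d. Il7, the thymocyte survival factor, covered 869 and 680 bp in Aire -/- (wild types 471 and 623 bp), 689 and 349 bp in Aire +/C313Y (wild types 459 and 329 bp) and 680 and 580 bp in Aire +/C442G (wild types 696 and 742 bp). Both knockouts were above their wild types, both Aire +/C442G libraries were below theirs, and the Aire +/C313Y pair overlapped its wild types. Il15, which is carried to lymphocytes by its receptor chain Il15ra, covered 731 and 716 bp in Aire -/- (wild types 490 and 777 bp), 580 and 770 bp in Aire +/C313Y (wild types 631 and 539 bp) and 903 and 970 bp in Aire +/C442G (wild types 850 and 895 bp). Its groups overlapped in the knockout and C313Y sets, and both Aire +/C442G libraries were above their wild types. Il17c, an epithelial IL-17 family cytokine, covered 552 and 535 bp in Aire -/- (wild types a mean of 310 ± 4.24 bp SD), 565 and 563 bp in Aire +/C313Y (wild types 647 and 552 bp) and 605 and 597 bp in Aire +/C442G (wild types 573 and 784 bp). The wild types of the knockout set were the 2 lowest of the 12 libraries. Il23a, the p19 chain of IL-23, covered 485 and 571 bp in Aire -/- (wild types 401 and 278 bp), 501 and 483 bp in Aire +/C313Y (wild types 376 and 423 bp) and 775 and 508 bp in Aire +/C442G (wild types 498 and 497 bp). In each of the 3 sets both mutants were above both wild types. Il17d covered 268 to 560 bp, although no library had a peak in the 300 bases of its listed start.

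Ligands open in 11 libraries were Il6, Il12b, Il13, Il16, Il18, Il27 and Il1f10, and all but Il1f10 lacked their peak in a wild type of the knockout set. Of all genes open in 11 libraries, 44% lacked the first of those wild types and 41.5% the second, so the ligands' share is near that of all genes. These calls count either gene end. The listed start windows of Il12b, Il16 and Il1f10 held a peak in 0 libraries, that of Il13 in 2 and that of Il18 in 3. The regions behind the calls lay 847 bp from a listed start for Il12b, 2035 bp for Il13, 3375 bp for Il1f10, 11550 bp for Il16 and 3 bp for Il18. Il27 had no listed start. Il6, a cytokine of inflammation whose promoter is printed above, covered 129 and 113 bp in Aire -/- (wild types 0 and 108 bp), 234 and 116 bp in Aire +/C313Y (wild types 133 and 451 bp) and a mean of 467.5 ± 36.1 bp SD in Aire +/C442G (wild types 234 and 424 bp). Knockout-set libraries were at 129 bp or below, C313Y-set libraries ran from 116 to 451 bp, and C442G libraries were at 234 bp or above. These values are for the wider windows at the gene ends. The printed start window of Il6 held a peak in 5 libraries, with 0 bp in every library of the knockout set. Il12b encodes p40, the partner of p19 in IL-23. Its coverage stayed between 81 and 153 bp in the 11 libraries where it was open. Intermediate were Il3 in 6 libraries, Il1f6 in 4 and Il33 in 3. Il33, an alarmin of barrier cells, covered 71 bp in 1 wild type of the knockout set, 107 bp in 1 Aire +/C313Y library and 95 bp in 1 of its wild types, with no order by genotype. Il2, Il4, Il5, Il12a, Il17b, Il19, Il1f8 and Il34 were each open in 1 library only.

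The ligands closed at their ends in every library were Il1a, Il1b, Il1f9, Il9, Il10, Il11, Il17a, Il17f, Il20, Il21, Il22, Il24, Il25 and Il31. They include the T helper and innate lymphocyte cytokines IL-9, IL-17A, IL-17F, IL-21 and IL-22. Il25, the tuft cell cytokine, had its nearest peak 2006 to 7888 bp away (median over libraries 3653.5 bp). For Il17a the nearest peak was 9406 to 85662 bp away and for Il22 9103 to 62674 bp. Closed ends did not always mean a closed gene. Il10, which encodes an anti-inflammatory cytokine, held a peak inside the gene, over 1 kb from either end, in all 12 libraries (mm10 chr1:131022522-131023199, 240 to 665 bp covered). The receptor gene Il31ra, also closed at its ends, held 2 such regions. Over all members, 20 regions inside a gene and beyond the windows were present in all 12 libraries, in 16 members, among them Il12a, Il33, Il34, Il2ra, Il5ra, Il23r and Il1rl2. Il33 had its region at chr19:29948274-29948710 and covered 124 to 430 bp of it, so the low count at its ends misses an element found in every library.

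Receptor genes with peaks in all 12 libraries were Il10rb, Il11ra1, Il12rb2, Il13ra1, Il15ra, Il17ra, Il17rb, Il17rc, Il17rd, Il18r1, Il1rap, Il1rl1, Il2rg, Il3ra, Il4ra, Il6ra, Il6st and Il9r. They include shared chains: Il2rg (common gamma chain), Il6st (gp130), Il1rap (accessory chain of IL-1 family receptors), Il10rb and Il17ra. Il2rg covered 173 and 452 bp in Aire -/- (wild types 161 and 120 bp), 363 and 789 bp in Aire +/C313Y (wild types 151 and 189 bp) and 530 and 453 bp in Aire +/C442G (wild types 488 and 589 bp). Both mutants were above both wild types in the knockout and C313Y sets, and the C442G groups overlapped. Il6st covered 505 and 728 bp in Aire -/- (wild types 550 and 514 bp), 560 and 498 bp in Aire +/C313Y (wild types 562 and 519 bp) and 581 and 585 bp in Aire +/C442G (wild types 730 and 810 bp). Both Aire +/C442G libraries were below their wild types, and the other groups overlapped. Il17ra, the chain that IL-17A, IL-17C and IL-25 receptors share, covered 175 and 1027 bp in Aire -/- (wild types 300 and 156 bp), 724 and 699 bp in Aire +/C313Y (wild types 199 and 188 bp) and 840 and 848 bp in Aire +/C442G (wild types 727 and 753 bp). It was above both wild types in both mutants of the C313Y and C442G sets, while 1 knockout library stood at 175 bp beside 1027 bp in the other. Il10rb, shared by the receptors of IL-10, IL-22 and related ligands, covered 486 and 1054 bp in Aire -/- (wild types 217 and 153 bp), 924 and 535 bp in Aire +/C313Y (wild types 618 and 522 bp) and 1031 and 949 bp in Aire +/C442G (wild types 1078 and 1037 bp). The knockouts were above their wild types, and both Aire +/C442G libraries were below theirs.

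Several ligand-specific chains were also among the 18, and others, described further on, were open in fewer libraries or none. Il6ra covered 634 and 891 bp in Aire -/- (wild types 419 and 591 bp), 913 and 655 bp in Aire +/C313Y (wild types 920 and 946 bp) and 1096 and 918 bp in Aire +/C442G (wild types 1096 and 919 bp), the highest median of any receptor gene, 915.5 bp. Both knockouts were above their wild types and both Aire +/C313Y libraries were below theirs. Il3ra covered 564 and 903 bp in Aire -/- (wild types 311 and 391 bp), 849 and 545 bp in Aire +/C313Y (wild types 528 and 877 bp) and 954 and 868 bp in Aire +/C442G (wild types 1057 and 1345 bp). Its knockouts were above and its Aire +/C442G libraries below their wild types. Il15ra, which presents IL-15, covered 544 and 729 bp in Aire -/- (wild types 564 and 474 bp), 497 and 221 bp in Aire +/C313Y (wild types 504 and 98 bp) and 768 and 610 bp in Aire +/C442G (wild types 541 and 961 bp). Its groups overlapped in all 3 sets, and the 2 libraries of the C313Y wild types differed widely, at 504 and 98 bp. Il4ra, the chain that binds IL-4 and, with Il13ra1, IL-13, covered 445 and 402 bp in Aire -/- (wild types 235 and 294 bp), 490 and 326 bp in Aire +/C313Y (wild types 234 and 263 bp) and 394 and 421 bp in Aire +/C442G (wild types 604 and 316 bp). Both mutants were above both wild types in the knockout and C313Y sets. Il13ra1 covered 285 and 252 bp in Aire -/- (wild types 199 and 474 bp), 688 and 283 bp in Aire +/C313Y (wild types 223 and 238 bp) and 401 and 574 bp in Aire +/C442G (wild types 514 and 392 bp). Its groups overlapped in the knockout and C442G sets, and both Aire +/C313Y libraries were above their wild types. Il17rb, the IL-25 receptor chain, covered 293 and 289 bp in Aire -/- (wild types 334 and 178 bp), 497 and 389 bp in Aire +/C313Y (wild types 260 and 273 bp) and 601 and 807 bp in Aire +/C442G (wild types 678 and 695 bp). All 4 C442G-set libraries were at 601 bp or above, and no library of another set passed 497 bp. Its regions near the ends also lie near another gene, as they do for Il11ra2, Il16, Il18, Il1rl1, Il27ra, Il4i1b and Il9r, 8 members in all. Il10rb, Il17rc and Il18r1 also had regions near no other gene, but not in all 12 libraries. Il1rl1, the IL-33 receptor ST2, covered 368 and 169 bp in Aire -/- (wild types 139 and 79 bp), 158 and 84 bp in Aire +/C313Y (wild types 333 and 178 bp) and 368 and 193 bp in Aire +/C442G (wild types 186 and 187 bp). Its peaks were those beside the neighbouring Il18r1, and no peak lay at its listed starts, so its open call carries no peak of its own start.

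Receptor genes open in 11 libraries were Il10ra, Il1r1, Il20rb, Il27ra and Il2ra. Il17re and Il20ra were open in 10, Il1rl2 and Il7r in 9, Il23r in 8 and Il5ra in 6. For Il5ra, a region whose nearest edge was 741 bp from an end (chr6:106749778-106750667) held a peak in all 12 libraries. It crosses the edge of the 1 kb window, and in only 6 libraries did the peak reach inside. Il11ra2 and Il22ra1 were open in 4, Il21r and Il2rb in 2 and Il1rapl1 in 1. Il12rb1, Il18rap, Il1rapl2 and Il31ra were open in none. Il12rb1 pairs with Il12rb2 and with Il23r, and it held a peak inside the gene, beyond the windows, in 11 libraries. Among antagonists, the decoy receptor Il1r2, which binds IL-1 without signalling, was open in all 12 libraries. It covered 315 and 369 bp in Aire -/- (wild types 82 and 140 bp), 768 and 697 bp in Aire +/C313Y (wild types 755 and 280 bp) and 354 and 814 bp in Aire +/C442G (wild types 282 and 325 bp). The wild types of the knockout set were the lowest pair, at 82 and 140 bp. Il18bp was open in 10 libraries, Il13ra2 and Il1rn in 7, and Il1f5 and Il22ra2 in 1 each. Il4i1, an amino acid oxidase, covered 902 and 680 bp in Aire -/- (wild types 252 and 364 bp), 1211 and 1214 bp in Aire +/C313Y (wild types 905 and 746 bp) and 1028 and 933 bp in Aire +/C442G (wild types 960 and 961 bp). It overlaps Il4i1b, also open in all 12, and a peak near both genes counts for each.

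Fewer members were open in the wild types of the knockout set than in any other group. The counts were 46 and 49 in Aire -/- (47.5 ± 2.12, SD, n = 2) against 35 and 36 in its wild types (35.5 ± 0.707), 47 and 44 in Aire +/C313Y (45.5 ± 2.12) against 49 and 46 (47.5 ± 2.12), and 50 and 51 in Aire +/C442G (50.5 ± 0.707) against 53 and 50 (51.5 ± 2.12). The knockout groups did not overlap, and the other mutants overlapped their wild types. Within 1 set of 2 against 2, the exact permutation test cannot go below p = 0.333. All genes moved alike: 62.15% were open on average in Aire -/- and 51.6% in its wild types. With all lists of a set cut to the length of its shortest, 33 and 36 members were open in Aire -/- and 35 and 36 in its wild types, which overlap. In the other 2 sets the cut lists gave 46 and 44 against 45 and 46, and 49 and 50 against 53 and 50.

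**Figure D2:**
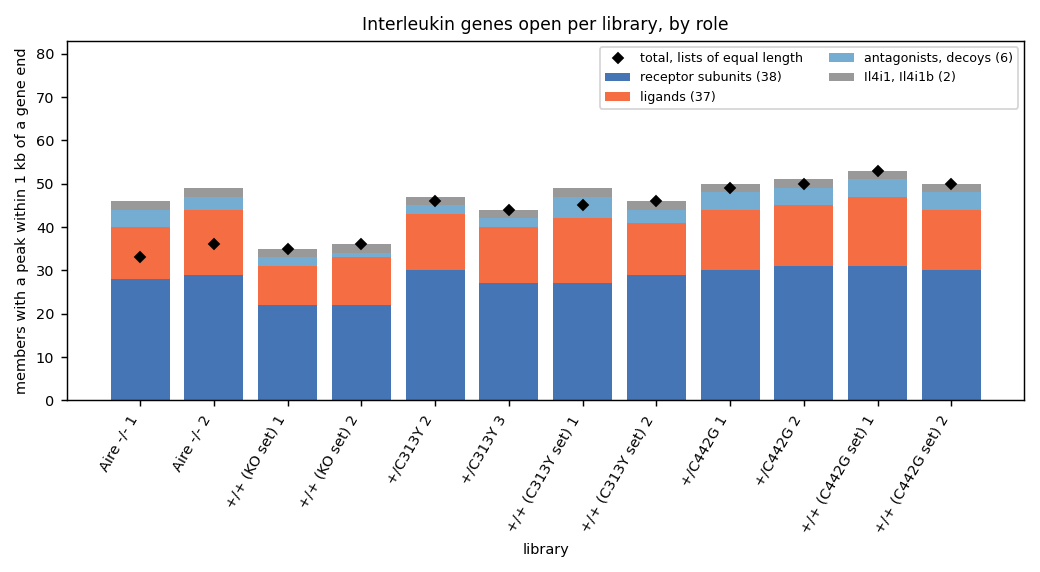
Open members in each library (bars stacked by role; diamonds, total with the lists of a set cut to equal length). The knockout-set wild types are the lowest bars at 35 and 36, and the diamonds of that set lie between 33 and 36.

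In the knockout set, 5 members gained a peak, meaning a peak in both mutants and in neither wild type: Il7r, Il23r, Il1rl2, Il13ra2 and Il18bp (6.02% of members, against 5.21% of all genes). None was lost, against 0.0277% of genes. The members' share lay near that of all genes. Il7r, the IL-7 receptor alpha chain, covered 268 and 160 bp in Aire -/- (wild types 0 and 0 bp), 486 and 82 bp in Aire +/C313Y (wild types 0 and 456 bp) and 302 and 278 bp in Aire +/C442G (wild types 320 and 285 bp). Its peaks lay at the 5′ end of the gene, and in Aire -/- the authors' fold enrichment was 3.46 and 3.36, with a -log10 q of 1.71 and 1.58 in lists that begin just above 1. The same region was open in 9 libraries, including 3 of the 4 wild types of the other sets. Il23r, the specific chain of the IL-23 receptor, covered 394 and 814 bp in Aire -/- (wild types 0 and 0 bp), 223 and 0 bp in Aire +/C313Y (wild types 334 and 0 bp) and 457 and 454 bp in Aire +/C442G (wild types 509 and 179 bp). Il1rl2, the receptor of IL-36 cytokines, covered 630 and 482 bp in Aire -/- (wild types 0 and 0 bp), 258 and 253 bp in Aire +/C313Y (wild types 0 and 60 bp) and 359 and 395 bp in Aire +/C442G (wild types 321 and 226 bp). Both were 0 in both wild types of the knockout set and above 0 in all 4 C442G libraries.

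Il13ra2, a decoy that binds IL-13, covered 195 and 230 bp in Aire -/- (wild types 0 and 0 bp), 0 and 0 bp in Aire +/C313Y (wild types 127 and 0 bp) and 281 and 426 bp in Aire +/C442G (wild types 247 and 171 bp). Its Aire -/- peaks, at chrX:147383824-147384018 and chrX:147383832-147384061, lay at the end of the gene far from its listed start at 147429192, with authors' folds of 4.94 and 5.29. Il18bp, a soluble binding protein that neutralises IL-18, covered 315 and 64 bp in Aire -/- (wild types 0 and 0 bp), 576 and 110 bp in Aire +/C313Y (wild types 241 and 117 bp) and 436 and 375 bp in Aire +/C442G (wild types 445 and 359 bp). It was open in every library outside the knockout-set wild types. When all 6 wild types served as controls, no member was gained, against 0.245% of genes. With lists of equal length, Il13ra2 alone was still gained (genes 0.8%) and Il1f10 was lost (genes 1.57%). Il13ra2 was also the only one of the 5 still gained with peaks of a -log10 q of at least 3, where 11 members, most of them others, were gained (genes 6.76%). Counting peaks anywhere in the gene body ended the call for Il23r, Il1rl2 and Il13ra2, and a window of 500 bp ended it for Il18bp. The count of gained members was 13 without the second wild type of the knockout set, 10 without the first and 8 without the first knockout. The count lost was 2 and 1 without those wild types in turn. With a library left out the rule asks for fewer libraries, so such counts can only stay or rise.

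**Figure D3:**
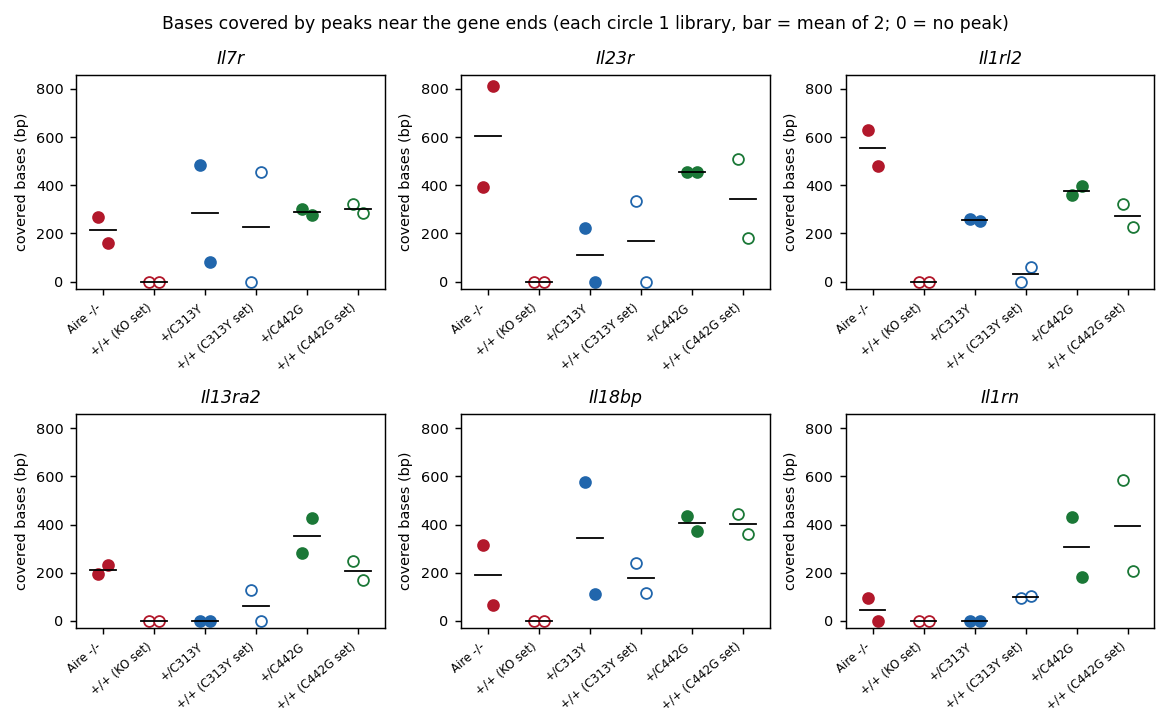
Bases covered near the gene ends (bp; circles, libraries; bars, means of 2) for the 6 members gained or lost in a set, by group. Il7r, Il23r, Il1rl2, Il13ra2 and Il18bp are at 0 in both knockout-set wild types, and Il1rn is at 0 in both Aire +/C313Y libraries.

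In the Aire +/C313Y set no member was gained, against 0.846% of genes, and 1 was lost, Il1rn (1.2%, against 0.37% of genes). In the Aire +/C442G set no member was gained or lost, against 0.897% and 0.291% of genes. Leaving out a library loosens the rule, so these small counts could only stay or rise. In the C313Y set, gained and lost were 3 and 6 without the second wild type and 1 and 2 without the first. Without the Aire +/C313Y library numbered 3, 1 was gained, and without the one numbered 2, 2 were lost. In the C442G set, 1 was gained without the first mutant and 3 were lost without the second wild type. Il1rn encodes the IL-1 receptor antagonist, whose gene has an upstream start and internal starts. It covered 93 and 0 bp in Aire -/- (wild types 0 and 0 bp), 0 and 0 bp in Aire +/C313Y (wild types 93 and 101 bp) and 430 and 182 bp in Aire +/C442G (wild types 585 and 205 bp). Near its ends it was 0 in both Aire +/C313Y libraries, at 93 and 101 bp in their wild types, and also 0 in 3 of the 4 libraries of the knockout set. The wild-type peaks were therefore short. The window of the internal start at 24345291 was open in all 12 libraries, with 141 and 212 bp covered in Aire +/C313Y and 225 and 194 bp in its wild types, so those groups overlapped there. A region 1043 bp outside the gene end (chr2:24335442-24335817), just beyond the window, was also present in all 12. The lost call therefore concerns only the upstream end, and a window of 2500 bp ended it. Close to the threshold, Il19 was counted by a peak whose nearest edge was 993 bp from an end, and a region of Il18bp at 1007 bp and of Il18 at 1026 bp were not.

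**Figure D4:**
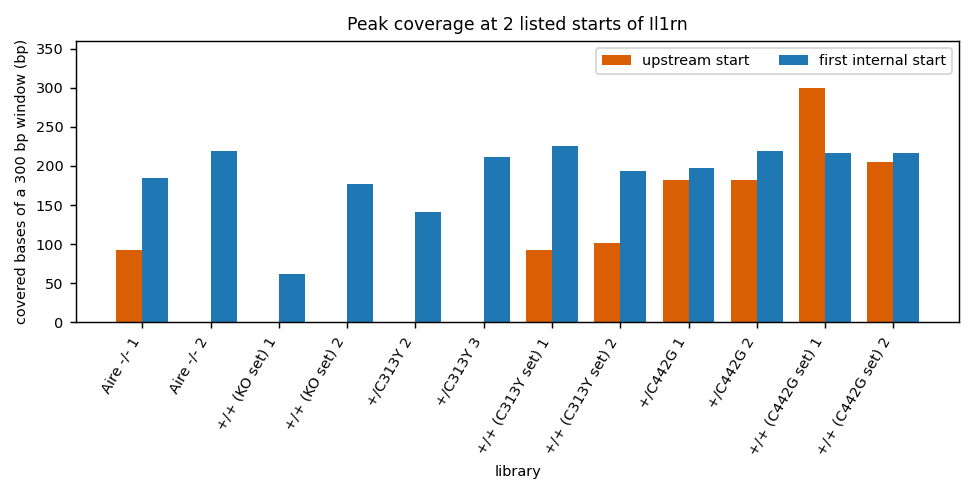
Bases covered in the 300 bp windows of the upstream start and an internal start of Il1rn (bp; bars, 1 library each). The upstream window is at 0 in both Aire +/C313Y libraries, and the internal window has between 62 and 225 bp in every library.

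Some members were open near their ends in a single set, mutants and wild types alike. Il11ra2, one of the mouse copies of the IL-11 receptor gene, covered 0 and 0 bp in Aire -/- (wild types 0 and 0 bp), 446 and 186 bp in Aire +/C313Y (wild types 97 and 256 bp) and 0 and 0 bp in Aire +/C442G (wild types 0 and 0 bp). It was open in all 4 C313Y-set libraries and in 0 of the other 8, a pattern of 0.43% of genes, and near copies of this gene make the placement of its reads uncertain. Il1f6, the IL-36 alpha gene, covered 0 and 0 bp in Aire -/- (wild types 0 and 0 bp), 0 and 0 bp in Aire +/C313Y (wild types 0 and 0 bp) and 155 and 366 bp in Aire +/C442G (wild types a mean of 370.5 ± 101 bp SD). Il22ra1, the IL-22 receptor chain of epithelia, whose promoter is printed above, covered 0 and 0 bp in Aire -/- (wild types 0 and 0 bp), 0 and 0 bp in Aire +/C313Y (wild types 0 and 0 bp) and 199 and 300 bp in Aire +/C442G (wild types 196 and 263 bp). Both were open in all 4 C442G-set libraries and in 0 of the other 8, as were 0.185% of genes. For Il22ra1 this holds only near its ends. A region inside Il22ra1, 2229 bp from an end, was present in 7 libraries. With a window of 2500 bp and with the gene body, Il22ra1 was called gained in the C313Y set (genes 0.851% and 0.578%). These differences are between sets and not between genotypes within a set.

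The test over all 3 sets compared mutants with wild types within sets by exact two-sided permutation of the covered bases as log2(bp + 100), with 216 assignments and a smallest possible p of 0.00926. Of 65 members tested, 6 were higher in mutants at an unadjusted p under 0.05 (9.23%, against 13.6% of 16058 genes), and none was lower, against 0.137% of genes. No gene passed after Benjamini-Hochberg adjustment over all genes, where the smallest adjusted p was 0.263. Il23a differed by 0.35 (log2, p = 0.00926, exact permutation test) and Il1rl2 by 1.52 (p = 0.00926, exact), both the smallest p possible. Il10ra, the IL-10 receptor's specific chain, differed by 0.98 (p = 0.0185, exact), Il1r2 by 0.77 (p = 0.0278, exact), Il4i1 by 0.55 (p = 0.0278, exact) and Il20rb by 0.59 (p = 0.0370, exact). The same test on presence called 0 of 39 members and 17 of 5980 genes (0.284%) higher at an unadjusted p under 0.05, with none lower and none after adjustment. Both tests used lists of full length. The mutants' lists were on average the longer in all 3 sets, with means of 90401 against 34381, 66555 against 64918.5 and 118680 against 94058.5 peaks. With lists of equal length, 4 members passed an unadjusted p of 0.05 for covered bases, and the share of all genes is not given.

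Per set, both mutants were above both wild types for 31 of 53 members in the knockout set (genes 56.8%), 14 of 55 in the C313Y set (27.5%) and 12 of 54 in the C442G set (21.5%). Both mutants were below both wild types for 0 members in the knockout set (genes 1.47%), for 5 in the C313Y set, Il17rd, Il18r1, Il1rl1, Il1rn and Il6ra (6.35%), and for 5 in the C442G set, Il10rb, Il12rb2, Il3ra, Il6st and Il7 (12%). For the 26 members open in all 12 libraries, the median log2 difference was 0.52, 0.23 and -0.0049 in the 3 sets, with 24, 16 and 12 above 0. The 10078 genes open in all 12 had medians of 0.34, 0.10 and 0.02, with 88.4%, 70.4% and 54.8% above 0.

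**Figure D5:**
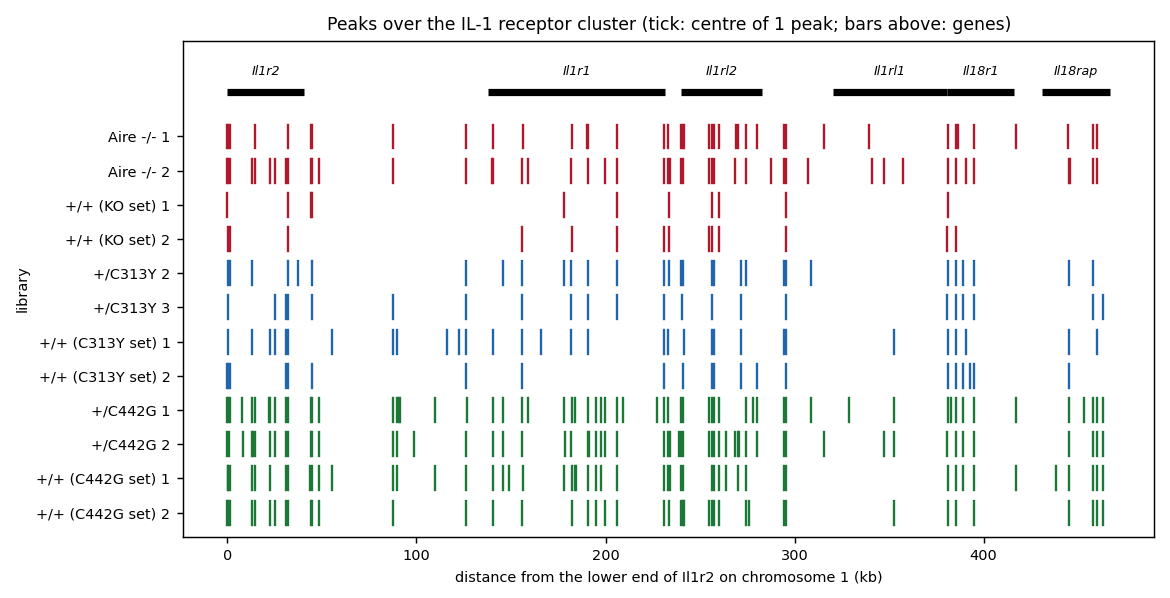
Peaks (ticks, peak centres) in the 12 libraries over the chromosome 1 cluster of 6 IL-1 receptor family genes (bars above), by distance from the lower end of Il1r2 in kb. Ticks are densest in the 4 C442G-set libraries and sparsest in the knockout-set wild types.

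Many interleukin genes lie in clusters, which also hold peaks away from the gene ends. The IL-1 receptor cluster (Il1r2, Il1r1, Il1rl2, Il1rl1, Il18r1 and Il18rap, chr1:40084692-40551707, 467.016 kb) held 92 distinct regions, of which 5 were found in all 12 libraries and 35 in 1. It had 40 and 47 peaks in Aire -/- and 11 and 14 in its wild types, 30 and 22 in Aire +/C313Y and 31 and 21 in its wild types, and 61 and 57 in Aire +/C442G and 51 and 42 in its wild types. The knockout and C442G groups did not overlap, and in those sets the mutants' lists were also the longer. The IL-1 ligand cluster on chromosome 2 held 27 regions, the IL-10 cluster on chromosome 1 held 15 and the cluster of Il4, Il13 and Il5 on chromosome 11 held 23, each with 2 regions in all 12 libraries.

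Genes downstream of the receptors were open more often than the members themselves. Of 15 JAK, STAT and SOCS genes, 13 were open in all 12 libraries, Stat4 in none, and Stat5b gained a peak in Aire -/-. Of 8 adaptors of IL-1 family receptors, 7 were open in all 12, and Sigirr, a negative regulator, gained a peak in Aire +/C313Y (592 and 263 bp, wild types 0 and 0). Both IL-17 adaptors, Traf3ip2 and Nfkbiz, were open in all 12. Among related cytokines and receptors, Crlf2 and Ebi3 were open in all 12, and Osmr and Tslp gained a peak in Aire -/-. At Tslp only 19 and 22 bp were covered there. None of these genes lost a peak in any set. Of all genes, 46.6% were open in all 12, 5.21% gained a peak in Aire -/- and 0.846% in Aire +/C313Y. The shares of all genes lost were 0.0277%, 0.37% and 0.291% in the knockout, C313Y and C442G sets.

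Of 17 thymic epithelial and antigen presentation markers, 8 were open in all 12 libraries (Aire, Cd40, Cd74, Epcam, H2-Aa, H2-Ab1, Krt8 and Tnfrsf11a), while Ciita was closed in all. Cd80 was open in 1 library, Krt5 and Krt14 in 8, Cd86, Foxn1 and Pax1 in 9, and Ctss and Fezf2 in 11. The share open in all 12 is near the 46.6% of all genes, so the count by itself does not identify the cells. Of 14 thymocyte and T cell markers, 1 to 5 were open per library and none in all 12, with Cd8a, Lck, Ptprc, Rag1, Rag2 and Zap70 at 0 everywhere. Their summed coverage was 646 to 905 bp in Aire -/- and 79 to 355 bp in its wild types, 393 to 925 bp and 465 to 575 bp in the C313Y set, and 860 to 1256 bp and 439 to 649 bp in the C442G set. It moved in the same direction as Il7r, Il23r and Il1rl2 in the knockout set. So did the 17 thymic epithelial markers (5759 to 6386 bp against 2986 to 3880 bp) and the markers of dendritic cells and macrophages (1319 to 1435 bp against 558 to 632 bp), of which Flt3 and Xcr1 were open in all 12 libraries. The same held for markers of tuft cells (1172 to 1613 bp against 0 to 467 bp), of fibroblasts and mural cells (763 to 775 bp against 0 to 192 bp), of B cells (76 to 281 bp against 0 bp) and of innate lymphoid cells, a list that holds Il7r itself (666 to 722 bp against 277 to 319 bp). Endothelial markers were at 0 bp in all 4 libraries. The Aire -/- lists were also the longer, and 56.8% of 14325 genes open in the set had both knockouts above both wild types. No marker sums were taken from lists of equal length. The part of list length or of any of these markers in the members' values was not tested.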

How the data were processed

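ATAC-seq of sorted mTEChi gave 12 peak lists, 1 per library, called per library and not on pooled samples. Per the submitters' processing notes, cutadapt, Bowtie2, Picard and MACS2 were used with mm10. The sources used here do not give their versions, or say whether reads were shifted for the transposase. Of the lists, 8 deposited lists hold, for each peak, the authors' fold enrichment (a ratio), score and -log10 q, and 4 (the C313Y set) hold positions only. No file gives counts or depth, so no count test applies and no interval can be given.

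Peaks were overlapped (at least 1 bp) with windows of 1 kb on either side of both ends of 21631 protein-coding genes of RefSeq GRCm38.p6, on chromosomes 1 to 19 and X, with Python 3.11.15, pandas 2.3.3 and numpy 2.4.6. Covered bases were tested as log2(bp + 100) and presence as 0 or 1, by exact permutation of libraries within the 3 sets, with Benjamini-Hochberg adjustment over all genes tested. A gene was gained or lost in a set when both mutants, or both wild types, and neither of the others had a peak. The code was tested on simulated lists. Listed starts are windows of 250 bp before to 50 bp after a start.

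Values in every library are given for members gained or lost, for up to 4 members of each role open in all 12 libraries with the highest median coverage, and for a fixed list of thymus-related members; Il6, Il10ra, Il11ra2, Il1f6, Il20rb, Il22ra1 and Il4i1 were named after their values were seen. The members, the lists of other genes and the tests were chosen with earlier results of these data known. Alternatives were other windows (500 and 2500 bp, gene body), lists of equal length, a -log10 q of at least 3 (not applicable to the C313Y set, whose lists have no q and were cut to equal length by peak width), a pseudocount of 10 bp, each library left out, and a replicate block. Others, listed starts only, shared peaks left out and all 6 wild types as controls, were chosen after the data were seen. Part of the list of related cytokines and receptors is not reported here.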

Additional observations from a re-analysis of the deposited data

Results flagged for a closer look

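For 6 members the covered bases moved in opposite directions in different sets, with both mutants above both wild types in one set and both below in the other; none of these differences was tested. They are 9.23% of the 65 members open in a library, and 10.8% of 16058 genes open in a library showed such a pattern, so the members' share is near that of all genes. Il10rb differed most in the knockout and C442G sets: the log2 difference in Aire -/- minus that in Aire +/C442G was 1.63. The same quantity was 1.22 for Il3ra and 0.605 for Il7. Comparing Aire -/- with Aire +/C313Y, it was 1.74 for Il18r1, 1.45 for Il1rl1 and 0.750 for Il6ra, and for Il1rl1 the difference in Aire +/C442G minus that in Aire +/C313Y was 1.04. Il18r1 and Il1rl1 share their peak, so they are not separate cases. In the knockout set the mutants' lists are the longer, and the part of list length in these values was not tested.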

How the results depend on the processing

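Of the counts of members, 38 of 61 values under the alternatives that kept all libraries lay within 1.5 times the main count and 23 did not. The balance of gained and lost turned in places: in the C313Y set from 0 gained and 1 lost to the reverse with the gene body and with lists of equal length, and over all genes of the knockout set from 5.21% gained and 0.0277% lost to 0.8% and 1.57% with lists of equal length. A 500 bp window gave 1 gained in the C313Y set (genes 0.901%). A 2500 bp window gave 8 gained and 1 lost in the knockout set (genes 6.2% and 0.037%). It gave 1 gained in the C313Y set (0.851%) and 9 members open in no library (18.1%). For covered bases 11 members passed an unadjusted p of 0.05 (exact permutation test). Shares of all genes for covered bases under the alternatives are not given. The gene body with 1 kb on each side gave 1 gained and 0 lost in the C313Y set (genes 0.578% and 0.439%). It gave 41 open in all 12 (58.7%), 8 open in none (16.1%) and 23 for covered bases. Lists of equal length gave 1 gained and 1 lost in the knockout set (genes 0.8% and 1.57%). In the C313Y set they gave 1 gained and 0 lost (0.767% and 0.411%). A -log10 q of at least 3 gave 11 gained in the knockout set (genes 6.76%), 14 open in all 12 (35.1%) and 10 for covered bases. It could not act on the C313Y set, whose lists hold no q. Listed starts, held by 66 members, gave 0 lost in the C313Y set (genes 0.243%), 15 open in all 12 (44.8%) and 30 in none (33.1%). In the knockout set they gave 5 gained (genes 3.58%): Il7r, Il23r, Il1rl2, Il17re and Il4i1. Il13ra2 and Il18bp were thus not gained at their listed starts. All 6 wild types gave 0 gained in the knockout set (0.245%). With each library left out, gained and lost members ranged from 5 to 13 and 0 to 2 in the knockout set. The ranges were 0 to 3 and 1 to 6 in the C313Y set, and 0 to 1 and 0 to 3 in the C442G set. Open in all remaining libraries ranged from 26 to 34, open in none from 18 to 21, and covered bases from 4 to 8. Fewer libraries loosen these calls, so all but the covered-base counts could only stay or rise. Shares of all genes under the looser calls are not given. The cause of the shifts under the other alternatives was not tested. With the replicate block the exact permutation test has 32 assignments and a smallest p of 0.0625, so 0 members passed. The log2 difference between the 2 mutants was correlated over 16058 genes with that between the wild types of the same numbers. The correlation was 0.00605 in the knockout set and 0.00140 in the C442G set, so same-numbered libraries showed no shared deviation there. The C313Y set shares only 1 number and gave no value. The depth behind peaks is unknown, 2 libraries per group limit every comparison, and a peak missing from a short list does not show closed chromatin.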
